A study of Mus musculus with 19 samples.

Results

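The 4 Dppa genes Dppa2, Dppa3, Dppa4 and Dppa5a (developmental pluripotency associated genes) were followed through 4 genotypes of mouse embryonic stem cells with and without Trim71 and Lin28a. The members were the rows of the expression table with these 4 symbols, and all 4 were found among its 21685 genes. In each genotype name the state of Trim71 precedes that of Lin28a. WT-WT cells were homozygous for floxed Trim71 and floxed Lin28a (n = 4 libraries), KO-WT cells had lost Trim71 and kept floxed Lin28a (n = 4), WT-KO cells kept floxed Trim71 and had lost Lin28a (n = 5), and KO-KO cells had lost both (n = 5). TRIM71 is an RNA-binding ubiquitin ligase of early embryos and stem cells. LIN28A binds precursors of let-7 microRNAs and holds back their maturation. Per the labels' protocols, the cells were male C57BL/6, cultured in medium with fetal calf serum and LIF, and enriched for the surface antigen SSEA-1 on magnetic beads before harvest. Loss of Trim71 was induced with 500 nM 4-hydroxytamoxifen over 2 days, with at least 7 further days before harvest. The labels give this protocol for the libraries of all 4 genotypes, Trim71-intact ones included, and name no Cre driver. The labels give 2 clones per Lin28a state, 1 and E3 for the intact state and 1-4 and C1 for the null state, and a clone difference cannot be told apart from a Lin28a difference.

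The 4 genes share a name because they were grouped by expression in pluripotent cells, and not because their proteins are one family. DPPA2 and DPPA4 are SAP-domain proteins that bind DNA together, help to activate cleavage-stage genes such as Zscan4, and keep a set of developmental and germline promoters free of DNA methylation. DPPA3, also called STELLA or PGC7, marks naive pluripotency, oocytes and primordial germ cells; it shields maternal DNA methylation from TET3 in the zygote and displaces the maintenance factor UHRF1 from chromatin. DPPA5A, also called ESG1, is a KH-domain RNA-binding protein abundant in embryonic stem cells.

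Positions are those of GENCODE M21 on GRCm38; the build used by the authors is not given in the sources used here. Dppa4 (chr16:48283733-48294237) and Dppa2 (chr16:48303908-48319723) lie on the plus strand with 9670 bases between the end of the first and the start of the second. Dppa3 lies at chr6:122626410-122630272 on the plus strand, and Dppa5a at chr9:78367052-78368177 on the minus strand. The members' transcripts were compared with the let-7 seed because LIN28A acts on this microRNA. The seed (bases 2 to 8, in capitals) is shared by 9 of the 10 mature mouse let-7 sequences taken from RefSeq (GRCm38.p6) for this comparison, of which 2 are printed.
let-7a-5p: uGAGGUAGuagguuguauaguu
let-7g-5p: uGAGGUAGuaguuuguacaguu
None of the 7 protein-coding transcripts of the members holds the 7-base complements CTACCTC or TACCTCA on its own strand. These words overlap each other by 6 bases, and at least 1 of them is in the longest transcript of 33.1% of the 14724 tested genes that have one. Among tested genes with a longest transcript of at most 2447 bases, the length of the longest member transcript, the share was 15.2%. The word GGAGA, which LIN28 proteins recognise in RNA, is in the longest transcripts of Dppa2 (7 times), Dppa4 (5 times) and Dppa3 (1 time), and not in that of Dppa5a. It is in 95.2% of all longest transcripts of the tested genes. These matches describe letters and not binding.

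The longest run of bases shared by any pair of members was 9 to 12 bases. Copies elsewhere in the genome are closer. Dppa3-ps, a processed pseudogene on chromosome X, aligned to the Dppa3 coding sequence over 451 bases with 8 differences (98.2% identical) and a longest identical run of 86 bases. A stretch of both, bases 77 to 166 of the Dppa3 coding sequence, shows how few bases tell them apart; the 3 bases that differ are in capitals.
Dppa3: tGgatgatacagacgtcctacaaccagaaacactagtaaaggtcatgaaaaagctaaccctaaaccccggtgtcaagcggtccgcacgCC
Dppa3-ps: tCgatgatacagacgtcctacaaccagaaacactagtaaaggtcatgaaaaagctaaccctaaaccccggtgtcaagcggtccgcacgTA
Dppa5b and Dppa5c, pseudogenes beside each other on chromosome 9, have identical annotated transcripts of 348 bases. Aligned whole, they differed from the Dppa5a coding sequence at 39 of 348 bases (88.8% identical). The best-matching 297 bases held 9 differences (97.0% identical), and bases 164 to 253 of that sequence differ at 5 places, in capitals.
Dppa5a: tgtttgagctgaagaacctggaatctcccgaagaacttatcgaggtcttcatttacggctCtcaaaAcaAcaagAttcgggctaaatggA
Dppa5b: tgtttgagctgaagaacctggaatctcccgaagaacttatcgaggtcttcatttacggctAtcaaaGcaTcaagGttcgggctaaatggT
Mean log2 values of Dppa3-ps ran from 2.75 to 2.98 over the genotypes, of Dppa5b from 1.42 to 1.56 and of Dppa5c from 0.28 to 0.51, and none of the 3 passed the filter on low values. How the authors' counting shared reads between a gene and its copies is not given in the sources used here, so the values of Dppa3 and Dppa5a carry that uncertainty.

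Library depth is unknown, because the deposited values are normalised expression on a scale inferred to be log2. Differences between the days given in the labels had already been removed from them, and 1 further KO-WT library, equal to the mean of the other 4 within 1.5e-08, was left out. Clones 1 and 1-4 were on days 1 and 5, and clones E3 and C1 on days 2, 3 and 4. Removal of day effects thus also removed any average difference between these pairs of clones. Agreement of clones within a genotype is therefore partly built in. The targeted transcripts followed the labels. The log2 value of Trim71 was at most 9.55 in every Trim71-null library and at least 10.04 in every intact one, and that of Lin28a was at most 8.57 in every Lin28a-null library and at least 9.74 in every intact one. Embryonic stem cell markers were present in all libraries: the linear values of the 9 markers summed to 27430 to 28470 in WT-WT, 29110 to 29940 in KO-WT, 35090 to 37010 in WT-KO and 35540 to 37380 in KO-KO. Markers of other lineages were lower in the Lin28a-null cells: in WT-KO against WT-WT, 6 of 7 trophectoderm, 9 of 9 primitive endoderm and 4 of 5 fibroblast markers tested fell (limma). Of the 8 embryonic stem cell markers tested 6 rose and 0 fell, and of 5 neural markers 3 rose and 1 fell. Among all genes 20.3% rose and 22% fell. In KO-KO against KO-WT, 5 trophectoderm, 7 primitive endoderm and 4 fibroblast markers fell. There 3 embryonic stem cell markers rose and 1 fell, and 3 neural markers rose and 0 fell (20.8% and 22% of all genes). The sum over 9 trophectoderm markers was 3911 to 5484 in WT-WT and 3986 to 5082 in KO-WT, against 512.2 to 606.4 in WT-KO and 523.2 to 705.5 in KO-KO. The sum over 11 primitive endoderm markers was 5703 to 6809 in WT-WT and 6785 to 8544 in KO-WT, against 2728 to 3519 in WT-KO and 3344 to 4308 in KO-KO, and that over 5 fibroblast markers 330.7 to 537.9 in Lin28a-intact against 102.2 to 128.9 in Lin28a-null libraries. Fut4 among the embryonic stem cell markers, Cdx2 and Elf5 among the trophectoderm markers and Sox17 and Foxa2 among the primitive endoderm markers did not pass the filter on low values. These sums moved with every member that differed by Lin28a state below, and their part in those results was not tested. In bulk RNA, fewer cells of a type and less RNA per cell cannot be told apart.

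All 4 members passed the filter. Levels between genes were compared per kilobase of the longest annotated transcript. On that log2 scale Dppa5a was far above the others in WT-WT cells, with a mean of 14.37, followed by Dppa4 at 9.78, Dppa3 at 9.14 and Dppa2 at 8.15. KO-WT cells kept this order of means (14.44, 9.75, 9.03 and 7.98). In WT-KO cells Dppa3, at 10.002, stood above Dppa4, at 9.63. In KO-KO cells these neighbours were 9.70 and 9.62, a gap smaller than the SD of Dppa3 there (0.122), so their order was not resolved. Dppa5a and Dppa2 remained the highest and the lowest of the 4 in every genotype.

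**Figure D1:**
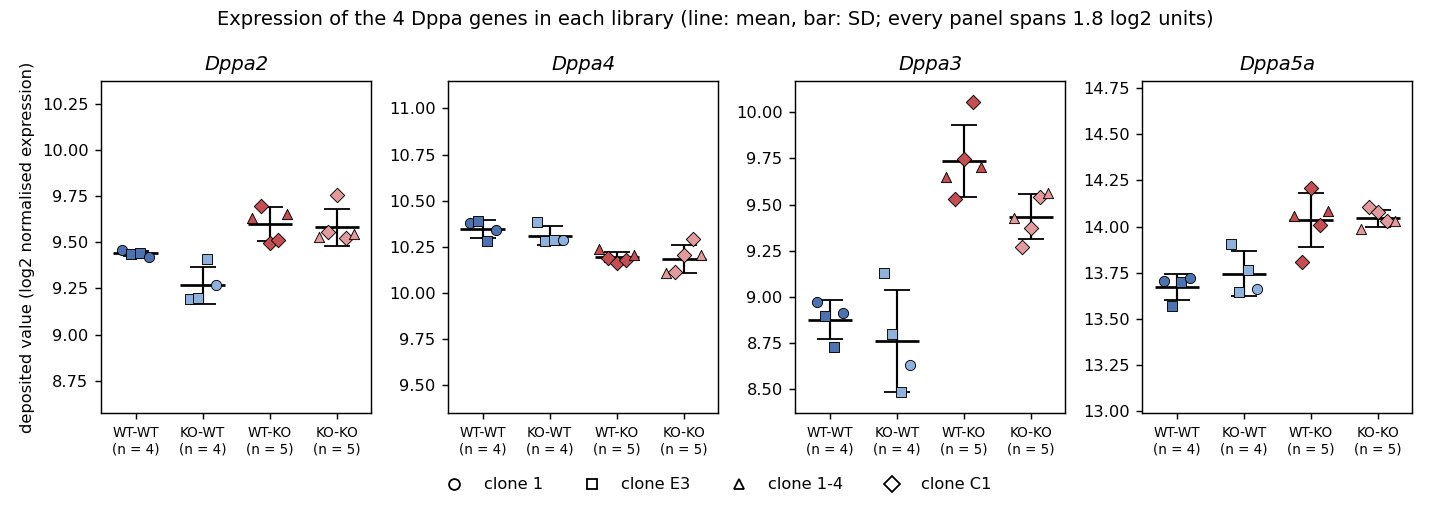
Deposited log2 value (vertical axis) of each Dppa gene in each of the 18 libraries by genotype (horizontal axis, Trim71 state first); marker shape is the clone, lines are means and bars are SD. Dppa3 and Dppa5a sit higher in WT-KO than in WT-WT with no overlap, Dppa4 sits lower, and Dppa2 lies between 9.50 and 9.75 in all Lin28a-null libraries against 9.19 to 9.46 in the intact ones. Of all genes, 40.8% had no overlap between WT-KO and WT-WT. Clones were tied to days whose effects had been removed, so agreement of clones within a genotype is partly built in.

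The Dppa genes differed by Lin28a state. In cells with Trim71, WT-KO against WT-WT, 3 of the 4 members passed the test (limma, adjusted p under 0.05 over all 14988 genes tested), where 42.4% of all genes did: Dppa3 and Dppa5a rose (as did 20.3% of all genes) and Dppa4 fell (as did 22%). In cells without Trim71, KO-KO against KO-WT, all 4 passed, where 42.8% of all genes did: Dppa3, Dppa5a and Dppa2 rose (as did 20.8% of all genes) and Dppa4 fell (as did 22%). A call was thus common among all genes, and the members were also placed by size. In cells with Trim71 the difference of Dppa3 was larger in size than that of 98% of all genes tested, that of Dppa5a larger than 83.6%, that of Dppa2 larger than 50.8% and that of Dppa4 larger than 49.1%.

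Dppa3 rose most. Its log2 values in WT-WT were 8.97, 8.89, 8.73 and 8.91, and those in KO-WT were 9.13, 8.80, 8.48 and 8.63. In WT-KO they were 9.65, 9.53, 9.75, 10.06 and 9.70, and in KO-KO 9.43, 9.27, 9.37, 9.54 and 9.56. Every Lin28a-null library was thus above every Lin28a-intact one, with KO-WT replicate 1 the highest of the intact libraries. The genotypes were free of overlap for 40.8% of all genes in WT-KO against WT-WT and 40.7% in KO-KO against KO-WT. The difference WT-KO minus WT-WT was 0.86 ± 0.122 on the log2 scale (SE, adjusted p = 3.83e-05 by limma) or 1.82-fold. All 4 same-day pairs showed it. The difference KO-KO minus KO-WT was 0.67 ± 0.122 (adjusted p = 0.00036 by limma), 1.59-fold and larger in size than that of 96.1% of genes. The same-day pairs ranged from 0.14 on day 2, with the high KO-WT library, to 1.06 on day 4.

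Dppa5a, the most abundant member, rose by a smaller factor in the Lin28a-null cells. Its log2 values were 13.71, 13.57, 13.70 and 13.72 in WT-WT, and 14.06, 13.81, 14.21, 14.01 and 14.08 in WT-KO. The KO-WT values were 13.91, 13.64, 13.76 and 13.66, and the KO-KO values 13.99, 14.11, 14.08, 14.03 and 14.03. The compared genotypes did not overlap in either background, as was so for 40.8% of all genes in WT-KO against WT-WT and 40.7% in KO-KO against KO-WT. WT-KO exceeded WT-WT by 0.36 ± 0.0741 (SE, adjusted p = 0.00106 by limma, 1.28-fold), and KO-KO exceeded KO-WT by 0.30 ± 0.0741 (adjusted p = 0.00378 by limma, 1.23-fold). In clones E3 and C1 alone the values were as large, 0.38 and 0.30, but missed the threshold (adjusted p = 0.0545 and 0.0589 by limma).

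Dppa2 and Dppa4, whose proteins act as a pair, went in opposite directions. The log2 values of Dppa2 were 9.46, 9.44, 9.44 and 9.42 in WT-WT, and 9.63, 9.70, 9.50, 9.51 and 9.65 in WT-KO. Those in KO-WT were 9.19, 9.20, 9.41 and 9.27, and those in KO-KO were 9.53, 9.55, 9.75, 9.52 and 9.54. All Lin28a-null libraries lay above all intact ones. Among all genes 40.8% had no overlap in WT-KO against WT-WT and 40.7% in KO-KO against KO-WT. The difference passed the test in cells without Trim71, at 0.31 ± 0.0632 (SE, adjusted p = 9e-04 by limma, 1.24-fold). In cells with Trim71 it was 0.16 ± 0.0632 and did not pass (adjusted p = 0.0535 by limma, 1.12-fold), although the genotypes did not overlap. That value passed with transcript GC content and length taken into account (0.30, adjusted p = 0.00239 by limma). With each library left out in turn it passed in only 4 of 18 fits. These lacked KO-WT replicate 3, WT-KO replicate 3, WT-KO replicate 4 or KO-KO replicate 3 (0.15, 0.20, 0.19 and 0.15, adjusted p = 0.0339, 0.0266, 0.0314 and 0.0267 by limma). The highest adjusted p among the 18 was 0.134. Restricting the fit to E3 and C1 gave 0.13 (adjusted p = 0.435 by limma). Restricting it to days that hold all 4 genotypes gave 0.12 (0.265). Both of these subsets have fewer libraries, and neither passed.

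The log2 values of Dppa4 were 10.38, 10.39, 10.28 and 10.34 in WT-WT, and 10.24, 10.19, 10.16, 10.18 and 10.21 in WT-KO. Those in KO-WT were 10.39, 10.28, 10.29 and 10.29, and those in KO-KO were 10.11, 10.11, 10.21, 10.29 and 10.21. WT-KO lay wholly below WT-WT, a comparison free of overlap in 40.8% of all genes, while KO-KO overlapped KO-WT through KO-KO replicate 4. The difference WT-KO minus WT-WT was -0.15 ± 0.0466 (SE, adjusted p = 0.0154 by limma), a level 0.9 times that of WT-WT, and it lost the call without WT-WT replicate 1 or 2 (-0.14 and -0.13, adjusted p = 0.0589 and 0.0616 by limma), in clones E3 and C1 (-0.16, 0.203) and in clones 1 and 1-4 (-0.14, 0.0711). With transcript GC content and length taken into account it was -0.10 (0.0374). The difference KO-KO minus KO-WT was -0.13 ± 0.0466 (adjusted p = 0.0397 by limma); it stayed past the threshold in 6 of the 18 fits with 1 library left out, with a highest adjusted p of 0.173 without KO-WT replicate 1, and with transcript GC content and length taken into account it was -0.04 (adjusted p = 0.371 by limma). These were the smallest called changes among the members, and in cells without Trim71 41.7% of all genes differed by less.

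Taken within each library, the difference of the log2 values of Dppa2 and Dppa4 cancels anything that acts on both genes of a library alike. Dppa2 minus Dppa4 averaged -0.91 ± 0.0483 in WT-WT (SD, n = 4) and -1.04 ± 0.132 in KO-WT (n = 4), against -0.597 ± 0.0747 for the 5 WT-KO and -0.605 ± 0.119 for the 5 KO-KO libraries. The Lin28a-null libraries ran from -0.77 to -0.45 and the intact ones from -1.19 to -0.84, so the states did not overlap. This separation follows from the opposite changes above in the same values and is no further support for them. Effects of GC content and length do not cancel, because the longest transcripts differ in both (43.6% GC and 2447 bases for Dppa2, 49.0% and 1479 for Dppa4). The genes on either side of the pair on chromosome 16 did not pass the test. Morc1, a germline silencing factor next to Dppa2, differed by -0.10 ± 0.118 in cells with Trim71 (SE, adjusted p = 0.538 by limma) and by -0.10 ± 0.118 in cells without it (adjusted p = 0.528), the sign of Dppa4 with an error that spans its size. Gm7204, a pseudogene next to Dppa4, differed by 0.09 ± 0.0891 (adjusted p = 0.414) and -0.14 ± 0.0891 (adjusted p = 0.23).

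**Figure D2:**
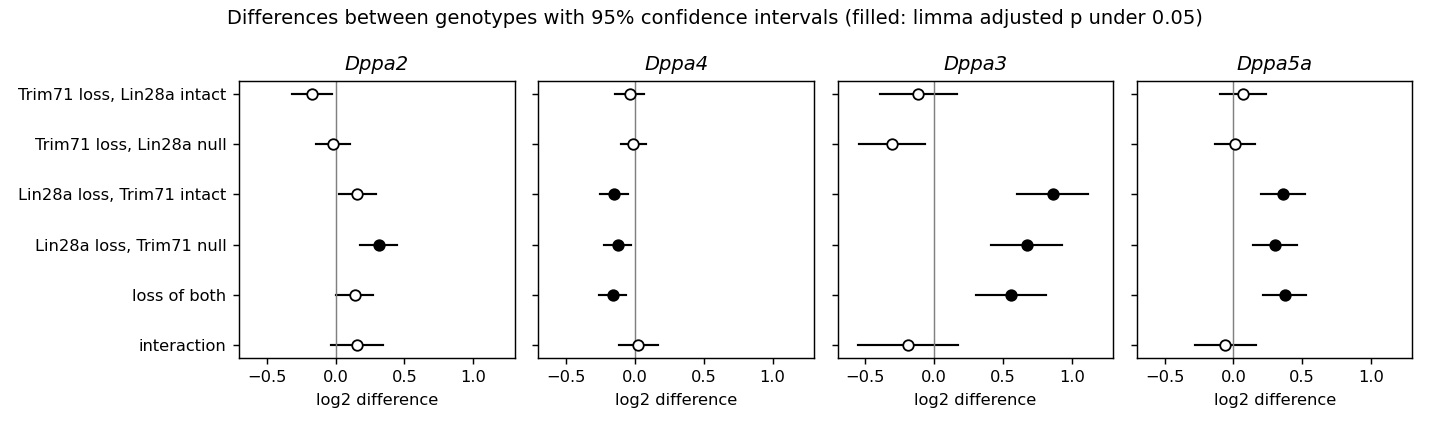
Log2 difference (horizontal axis) of each Dppa gene in 6 comparisons (vertical axis), with 95% confidence intervals from limma; filled points have an adjusted p under 0.05. All filled points belong to Lin28a loss or to loss of both genes. Dppa2 is open for Lin28a loss with Trim71 intact and for loss of both. The widest shift is that of Dppa3, 0.86 for Lin28a loss with Trim71 intact.

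Loss of Trim71 moved no member past the threshold. In KO-WT against WT-WT 0 of 4 passed, where 11.2% of all genes did (4.74% higher and 6.43% lower), and 1 of 4 had an unadjusted p under 0.05. That was Dppa2, at -0.17 ± 0.0683 (SE, adjusted p = 0.106 by limma); every KO-WT library, with a highest value of 9.41, lay below every WT-WT library, with a lowest value of 9.42, as 28.2% of all genes did in one direction or the other. All 3 same-day pairs were lower in KO-WT. The difference was -0.08 with transcript GC content and length taken into account (adjusted p = 0.544 by limma), and it passed without the day term (0.0282). The fit without day made many false calls on data simulated for WT-KO minus WT-WT with 200 genes changed. Its share of false calls in KO-WT minus WT-WT was not tested. Dppa3 differed by -0.11 with a 95% interval from -0.39 to 0.16. It was lower in KO-WT in 3 of 3 same-day pairs, by between 0.10 and 0.28, and the fit of these 2 genotypes alone gave -0.21 (adjusted p = 0.168 by limma), while single libraries left out moved the value between -0.25 without KO-WT replicate 1 and 0.02 without KO-WT replicate 3. Dppa4 differed by -0.04 with an interval from -0.14 to 0.07, and Dppa5a by 0.07 with an interval from -0.10 to 0.24.

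In the Lin28a-null cells, KO-KO against WT-KO, again 0 of 4 passed, where 8.38% of all genes did (4.26% higher and 4.12% lower), and 1 of 4 had an unadjusted p under 0.05. Dppa3 was lower in KO-KO than in WT-KO in 5 of 5 same-day pairs, by between 0.14 and 0.51, and the difference was -0.30 ± 0.113 (SE, adjusted p = 0.111 by limma, 0.81 times the WT-KO level). The libraries overlapped only through WT-KO replicate 2, at 9.53, below 2 KO-KO libraries, and 0 of 4 members were free of overlap, where 12.6% of all genes were. Among all genes tested 95.5% differed by less. The value passed the test in the fit of these 2 genotypes alone (adjusted p = 0.0118 by limma), without the day term (0.0436) and without KO-WT replicate 1 (0.0286), each at -0.30. It was smaller without WT-KO replicate 4 (-0.20, adjusted p = 0.31 by limma) and in clones 1 and 1-4 alone (-0.18, 0.165). Dppa2, Dppa4 and Dppa5a differed by -0.02, -0.01 and 0.01, with 95% intervals from -0.14 to 0.11, from -0.10 to 0.08 and from -0.13 to 0.16.

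**Figure D3:**
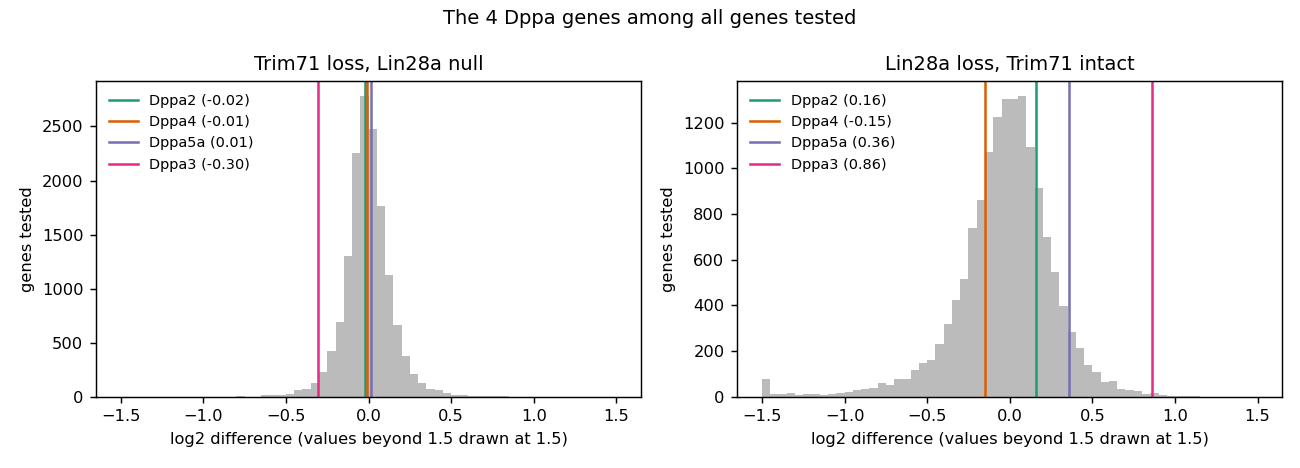
Number of genes tested (vertical axis) by log2 difference (horizontal axis, values beyond 1.5 in size drawn at the edge) for Trim71 loss in Lin28a-null cells (left) and Lin28a loss with Trim71 intact (right); coloured lines are the 4 Dppa genes. Dppa3 stands at -0.30 on the left and at 0.86 on the right, while Dppa2 and Dppa4 lie within the body of the distribution on both sides.

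Cells that had lost both genes were compared with WT-WT cells, a comparison that shares its libraries with those above. Of the 4 members 3 passed, where 45.6% of all genes did (21% higher and 24.6% lower), and 3 of 4 did not overlap between the genotypes, where 44.5% of all genes did not. Dppa3 was 0.56 ± 0.122 higher (SE, adjusted p = 0.00155 by limma, 1.47-fold), Dppa5a 0.37 ± 0.0741 higher (adjusted p = 0.000767, 1.29-fold) and Dppa4 fell by 0.16 ± 0.0466 (adjusted p = 0.01). Dppa2 was at 0.14 ± 0.0632 (adjusted p = 0.0818 by limma). The Dppa4 call was lost with transcript GC content and length taken into account (-0.09, adjusted p = 0.07 by limma), with the compared genotypes alone (-0.14, 0.0698), in clones E3 and C1 (-0.13, 0.274) and on the days with all 4 genotypes (-0.10, 0.13). Dppa2 was at 0.30 and passed with GC content and length taken into account (adjusted p = 0.00233 by limma), passed without the day term (0.0324), and was at 0.08 without KO-KO replicate 3 (0.29).

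The interaction term, the effect of Lin28a loss without Trim71 minus that with Trim71, passed in 0 of 4 members, where 0.02% of all genes did, and 0 of 4 had an unadjusted p under 0.05. It was 0.15 for Dppa2 (95% interval from -0.04 to 0.34) and -0.19 for Dppa3 (from -0.56 to 0.18). The larger effect on Dppa2 without Trim71 and the smaller one on Dppa3 were therefore not shown to differ from the effects with Trim71.

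Genes beside Dppa3 on chromosome 6 were considered next, since Dppa3 lies in a cluster of genes expressed in pluripotent cells. Of 4 neighbours, 2 rose and 1 fell with Lin28a loss in both Trim71 states. Among all genes 20.3% rose and 22% fell with Trim71, and 20.8% rose and 22% fell without it. Gdf3, a TGF-beta family ligand that is the nearest gene before Dppa3, rose by 1.01 ± 0.0651 with Trim71 (SE, adjusted p = 7.92e-09 by limma) and by 0.97 without it. Nanog, a core pluripotency factor, rose by 0.86 and 0.97. Slc2a3, a glucose transporter, fell by 0.57 with Trim71 (adjusted p = 1.36e-07 by limma) and by 0.44 without it, and Apobec1, a cytidine deaminase, did not pass in either state (0.04 and 0.20). With Trim71 loss in the Lin28a-null cells, 2 of these neighbours rose and 1 fell, where 4.26% of all genes rose and 4.12% fell. Apobec1 and Slc2a3 rose by 0.36 and 0.28 (adjusted p = 0.0105 and 0.00107 by limma), Gdf3 fell by 0.30 (adjusted p = 0.00552), and Nanog was at 0.08 (adjusted p = 0.558).

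Genes of the DNA methylation machinery on which DPPA3 acts, or which it opposes, changed in both directions. Of 11 tested, 4 rose and 3 fell with Lin28a loss in cells with Trim71, where 20.3% of all genes rose and 22% fell. In cells without it 5 rose and 4 fell (20.8% and 22% of all genes). The list medians were 0.14 in both, against -0.008 and -0.001 over all genes. The maintenance pair Uhrf1 and Dnmt1 rose by 0.32 and 0.36 with Trim71 (adjusted p = 7.38e-05 and 9.67e-07 by limma). All 3 de novo methylation genes had negative differences that passed: Dnmt3a -0.54, Dnmt3b -0.38 and Dnmt3l -0.71 (adjusted p = 0.000661, 0.00633 and 1.73e-05 by limma). Of the oxidising enzymes, Tet1 rose by 0.37 with Trim71 and by 0.71 without it, Tet2 passed without Trim71 (0.77) and not with it (0.20), and Tet3 passed in neither (0.14 and 0.14); the interaction passed in 0 of the 11 genes. Ehmt1, a histone H3 lysine 9 methyltransferase of the mark that DPPA3 binds, rose by 0.14 in both states, while its partner Ehmt2 was at 0.01 with Trim71 and fell by 0.22 without it (adjusted p = 0.000896 by limma).

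**Figure D4:**
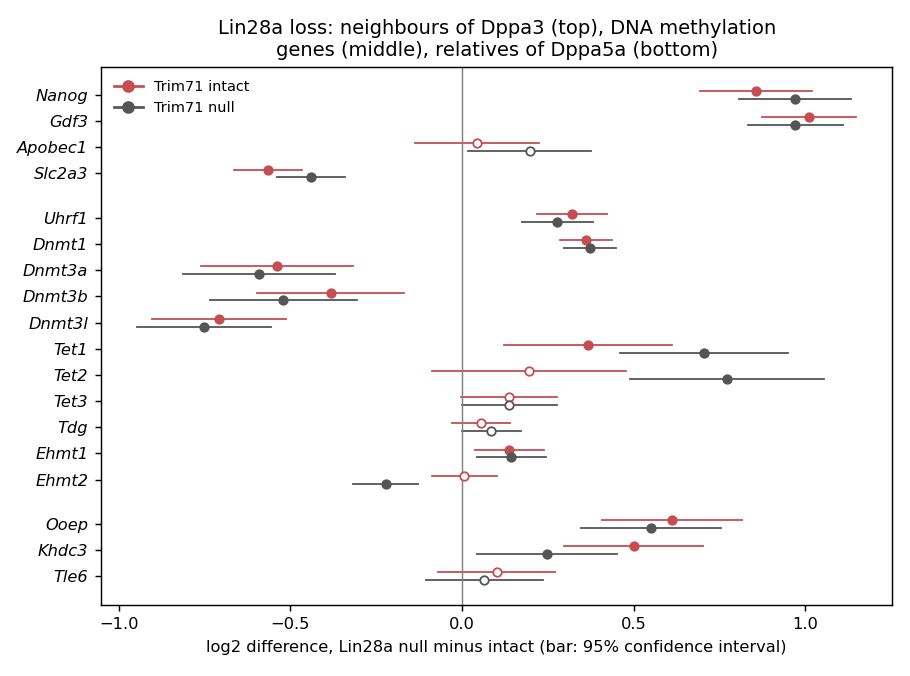
Log2 difference with Lin28a loss (horizontal axis, bars are 95% confidence intervals from limma) in cells with Trim71 (red) and without it (grey). The genes are the chromosome 6 neighbours of Dppa3, the DNA methylation genes, and the relatives of Dppa5a with their complex partner Tle6. Filled points have an adjusted p under 0.05. Nanog, Gdf3, Uhrf1, Dnmt1 and Ooep lie to the right of 0 and Slc2a3, Dnmt3a, Dnmt3b and Dnmt3l to the left in both.

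Relatives of Dppa5a in the KH-domain group of oocyte and embryo genes, and partners of their complex, were measured through 3 of the 7 genes listed. Ooep, a subunit of the oocyte subcortical maternal complex and the nearest gene after Dppa5a on chromosome 9, rose by 0.61 ± 0.0962 with Trim71 (SE, adjusted p = 0.000105 by limma) and by 0.55 without it. Khdc3, another subunit, rose by 0.50 and 0.25 (adjusted p = 0.000605 and 0.047 by limma). Tle6, a subunit of that complex without a KH domain, did not pass (0.10 and 0.07). The differences of Dppa5a itself were 0.36 and 0.30.

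Genes known to act downstream of DPPA2 and DPPA4 were looked at as lists. Cleavage-stage genes were close to the floor of the table. Of 16 such genes (Dux, Duxf3, Zfp352 and the Zscan4, Tcstv and Usp17l families), 11 were in the table and 0 passed the filter. Dux, Duxf3 and Zfp352 were not among the 11 and could not be measured. The log2 values of the 11 ran from 0.45 to 2.45 over all libraries, and at this level no change can be read. Their mean values were 1.45 in WT-WT, 1.26 in KO-WT, 1.17 in WT-KO and 1.14 in KO-KO. Of the germline genes that the pair keeps free of DNA methylation, Mael, a piRNA pathway gene, fell by 0.42 with Trim71 (adjusted p = 0.000426 by limma) and by 0.28 without it (adjusted p = 0.00912), and Syce1, a synaptonemal complex gene, did not pass (-0.03 and 0.07). Among 11 genes of the PRC1.6 complex and germline silencing, 2 rose and 2 fell with Trim71, where 20.3% of all genes rose and 22% fell. Without it 2 rose and 1 fell (20.8% and 22% of all genes). Max, the DNA-binding partner of MGA, differed by -0.34 and -0.35.

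Genes of primordial germ cells, where Dppa3 is a defining marker, were also counted. Of 8 tested, 5 rose and 1 fell with Lin28a loss in cells with Trim71, where 20.3% of all genes rose and 22% fell, and 5 rose and 0 fell in cells without it (20.8% and 22% of all genes); the medians were 0.42 and 0.39. Dazl, Ddx4 and Dnd1 each passed in 1 of the 2 states. Prdm1, which specifies these cells, rose by 0.69 and 0.64 (adjusted p = 3.91e-05 and 8.3e-05 by limma), and Ifitm3, a surface protein of early germ cells, by 0.59 and 0.42. The receptor Kit rose by 0.60 and 0.85. Tfap2c, another specifier, did not pass (0.13 and -0.10). Of 18 pluripotency factors, 16 rose and 0 fell with Trim71 (20.3% and 22% of all genes), with a median of 0.40. Without Trim71 12 rose and 1 fell (20.8% and 22% of all genes), with a median of 0.45. Prdm14 rose by 0.71 and 0.86 and Esrrb by 0.63 and 0.60, in the range of Dppa3. Pou5f1 was at 0.17 and 0.06 and Sox2 at 0.21 and -0.07. With Trim71 both were near the 0.16 of Dppa2, and without it both were below its 0.31. Of 5 formative and primed state genes tested, 0 rose and 3 fell with Trim71, and 0 rose and 4 fell without it, beside the same shares of all genes.

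Within genotypes, some pairs of members moved against or with each other. Over the 18 libraries, deviations from the genotype means correlated at r = -0.64 between Dppa2 and Dppa3 (Spearman -0.68) and at r = 0.47 between Dppa3 and Dppa4 (0.46); the other 4 pairs had r between -0.23 and 0.31. Dppa2 and Dppa4 were at r = 0.05. These libraries share days whose effects had been removed, so the points are not independent, and the values are a description. Across all 18 values, where Lin28a state sets most of the pattern, the genes most like Dppa3 among 10821 were Slc25a1 (r = 0.98), Gm33051 (0.97), Prdm1 (0.97), Mcrs1 (0.97) and Ralgps2 (0.97). Those most like Dppa5a were Mok, Cdk16, Gm26631, Serpinb6c and Plbd2 (r from 0.95 to 0.96). Brsk1, H2-M5, Ikbkap, Porcn and Pogz were most like Dppa2 (r from 0.929 to 0.945), and Cops8, Mcts2, Timm17a, 1700113A16Rik and Elp3 most like Dppa4 (r from 0.93 to 0.96). No member was among the 5 genes most like another member.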

How the data were processed

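The deposited table held 1 value per gene and library, which the authors had normalised; the values were inferred to be log2 from their range (-0.71 to 16.30). The submitters' processing notes name CASAVA 1.8, STAR and DESeq2, with no role for each; the genome build, annotation and counting are not given in the sources used here. Day effects had been removed before deposit, which no label states: fitted day terms were at most 8.2e-09. No sequencing depth can be read from such values, so no counting interval is given.

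Tested genes reached log2 of 10 in 4 or more libraries (14988 of 21685, 69.1%). limma 3.58.1 in R 4.3.3 was fitted on genotype and day, both as factors, over 18 libraries (10 residual degrees of freedom; eBayes with trend), two-sided, with Benjamini-Hochberg adjustment over all genes tested. The day term pays for the removal: on simulated data for WT-KO minus WT-WT with 14988 genes and 200 changed by 0.5, the fit with day recovered 87% with 3.91% of calls false, and the fit without day had 31.3% false. Day pairs the libraries per the labels; a check by correlation is void because the day effect is gone. The labels do not say that libraries came from separate cultures, so p-values measure the spread between these libraries.

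Genes were named by this rule: the 4 members; other symbols that begin with Dppa; members of 8 gene lists and 6 marker lists, by counts, with values where a role bears on a member; the 5 genes with the highest Pearson r to each member and a mean of at least log2 of 50; and the nearest gene on each side. The members and lists were chosen with earlier results of these data known. Alternatives were fits without day, other filters, 2 other scalings, eBayes without trend, correction for transcript GC content and length, subsets of clones, days and genotypes, and each library left out in turn.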

Additional observations from a re-analysis of the deposited data

Results flagged for a closer look

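In 3 of the 16 sets of values (4 genes in 4 genotypes) 1 library lay far from the others of its genotype. Its gap to the nearest library over the whole range was above Dixon's 95% critical value for its number of libraries. Chance gives this in about 1 of 20 sets of independent values. These sets share days whose effects had been removed, so that rate need not hold for them. Dppa2 in KO-KO replicate 3 was the highest at 9.754, with the next library at 9.554 and a ratio of 0.864. Dppa4 in KO-WT replicate 1 was the highest at 10.387, with the next at 10.287 and a ratio of 0.95. Dppa5a in WT-WT replicate 2 was the lowest at 13.567, with the next at 13.698 and a ratio of 0.844. KO-WT replicate 1 was also the highest KO-WT library for Dppa3 and Dppa5a, and the lowest for Dppa2 (9.193).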

How the results depend on the processing

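Values are log2 differences, with adjusted p by limma. The calls of Dppa3 for Lin28a loss in both Trim71 states and for loss of both genes held under every alternative run, as did those of Dppa2 in KO-KO minus KO-WT and of Dppa5a in KO-KO minus WT-WT. Without the day term (no replicate block), 4 more values passed: Dppa2 in KO-WT minus WT-WT (-0.173, 0.0282), WT-KO minus WT-WT (0.159, 0.0177) and KO-KO minus WT-WT (0.14, 0.0324), and Dppa3 in KO-KO minus WT-KO (-0.304, 0.0436); it changed no other call. In the fit of the compared genotypes alone, Dppa3 passed in KO-KO minus WT-KO (-0.304, 0.0118) and Dppa2 in WT-KO minus WT-WT (0.134, 0.0285), and Dppa4 missed in KO-KO minus KO-WT (-0.106, 0.115) and KO-KO minus WT-WT (-0.144, 0.0698). With 75th percentile scaling, Dppa2 passed in WT-KO minus WT-WT (0.177, 0.0385) and Dppa4 missed in KO-KO minus KO-WT (-0.123, 0.0524); without the trend in eBayes the latter was -0.125 (0.0676). With transcript GC content and length removed, Dppa2 passed in WT-KO minus WT-WT (0.297, 0.00239) and KO-KO minus WT-WT (0.298, 0.00233), Dppa4 missed in KO-KO minus KO-WT (-0.043, 0.371) and KO-KO minus WT-WT (-0.087, 0.07), and in KO-KO minus WT-KO Dppa2 (0) and Dppa4 (0.015) changed sign. In clones E3 and C1 alone, Dppa4 missed in WT-KO minus WT-WT (-0.156), KO-KO minus KO-WT (-0.115) and KO-KO minus WT-WT (-0.13), Dppa5a missed in WT-KO minus WT-WT (0.382) and KO-KO minus KO-WT (0.299), and Dppa3 in KO-WT minus WT-WT (0.001) and Dppa2 (0.042) and Dppa4 (0.026) in KO-KO minus WT-KO changed sign. In clones 1 and 1-4 alone, Dppa2 passed in WT-KO minus WT-WT (0.205, 0.014), Dppa4 missed in WT-KO minus WT-WT (-0.137) and KO-KO minus KO-WT (-0.123), and Dppa5a in KO-WT minus WT-WT (-0.067), KO-KO minus WT-KO (-0.06) and the interaction (0.007) and Dppa3 in the interaction (0.148) changed sign; the single KO-WT library there is assumed to vary like the others. On days with all 4 genotypes, Dppa4 missed in KO-KO minus KO-WT (-0.05) and KO-KO minus WT-WT (-0.101), and in KO-KO minus WT-KO Dppa2 (0.053), Dppa4 (0.053) and Dppa5a (-0.055) changed sign. The cause of these shifts was not tested, beyond the fewer libraries of the subsets.

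With each library left out in turn (18 fits), Dppa2 in WT-KO minus WT-WT ran from 0.134 to 0.196 and Dppa4 from -0.182 to -0.133; Dppa4 in KO-KO minus KO-WT ran from -0.164 to -0.088; and in KO-KO minus WT-KO Dppa2 ran from -0.077 to 0.019, Dppa3 from -0.383 to -0.197, Dppa4 from -0.046 to 0.019 and Dppa5a from -0.073 to 0.072. Dppa3 in KO-WT minus WT-WT ran from -0.249 to 0.021. The interaction ran from -0.009 to 0.067 for Dppa4 and from -0.107 to 0.001 for Dppa5a. Sign changes were seen only in values that pass no test. The number of all genes called moved by over 1.5 times in subsets: for KO-WT minus WT-WT from 1674 to 4219 without day, 10 in clones E3 and C1, 344 in clones 1 and 1-4, 474 on complete days and 30 with the compared genotypes alone; for KO-KO minus WT-KO from 1256 to 2618, 153, 287, 217 and 794. In clones E3 and C1 it fell to 2323 for WT-KO minus WT-WT, 3595 for KO-KO minus KO-WT and 2668 for KO-KO minus WT-WT, in clones 1 and 1-4 to 2293 for KO-KO minus KO-WT, and for the interaction it was 673 without day against 3.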
